A study of Mus musculus with 4 samples.

Results

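Messenger RNA of 10 erythroid priming genes was followed in LSK cells, the lineage-negative, Sca-1-positive, Kit-positive bone marrow fraction that contains the blood stem cells and early multipotent progenitors. The genes were Gata1, Klf1, Gfi1b, Zfpm1, Nfe2, Tfrc, Car1, Car2, Ank1 and Blvrb. They were chosen by name as master regulators and early genes of the red cell lineage, and each matched 1 row of the 24421 genes in the deposited count table. The cells were sorted from mice aged 13 to 15 months, 2 libraries from wild-type (WT) mice and 2 from mice heterozygous for the p53 mutation R248W (p53R248W/+). R248W replaces an arginine with which the tumour suppressor p53 touches DNA. Nothing in the labels tells whether replicates came from different mice, and the p-values given here reflect the variation among these libraries alone, which may be technical. How the mutant allele was made, and which cells carry it, was not given in the sources used here.

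GATA1 is the zinc finger transcription factor on which red cell and megakaryocyte maturation depends, and it also acts in mast cells, basophils and eosinophils. It works with the cofactor FOG1 (encoded by Zfpm1), induces Klf1, the activator of adult beta-globin and many other red cell genes, and takes over GATA sites held by GATA2 in earlier progenitors. GFI1B and NF-E2 (its p45 subunit is encoded by Nfe2) act in the red cell and megakaryocyte lineages alike. Stem cells and multipotent progenitors are known to carry low levels of such lineage transcripts before commitment, which is called priming.

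The promoters of Gata1, Klf1 and Gfi1b are shown because GATA1 is known to bind GATA motifs, and KLF1 CACCC motifs, in genes of the red cell lineage, and because these 3 genes encode DNA-binding regulators of that lineage. The sequences are from RefSeq on GRCm38.p6, the assembly that mm10 corresponds to. Each runs 5′ to 3′ on the strand of the gene and ends at the base before the gene's start in the deposited table. Capitals mark GATA motifs (AGATAA, where the opening A may also be T and the closing A may also be G) and CACCC motifs, each searched on both strands. No GATA match overlapped a CACCC match in these sequences.
Gata1, chrX:7967911-7968160, minus strand: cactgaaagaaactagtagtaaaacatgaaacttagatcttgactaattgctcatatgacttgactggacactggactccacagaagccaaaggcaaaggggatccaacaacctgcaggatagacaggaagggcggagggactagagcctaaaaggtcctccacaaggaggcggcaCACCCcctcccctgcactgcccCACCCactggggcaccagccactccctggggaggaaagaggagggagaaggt
Klf1, chr8:84901732-84901927, plus strand: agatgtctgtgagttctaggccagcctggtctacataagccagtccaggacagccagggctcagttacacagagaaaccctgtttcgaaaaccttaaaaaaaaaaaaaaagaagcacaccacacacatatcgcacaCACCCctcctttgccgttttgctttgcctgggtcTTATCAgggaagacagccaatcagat
Gfi1b, chr2:28621983-28622232, minus strand: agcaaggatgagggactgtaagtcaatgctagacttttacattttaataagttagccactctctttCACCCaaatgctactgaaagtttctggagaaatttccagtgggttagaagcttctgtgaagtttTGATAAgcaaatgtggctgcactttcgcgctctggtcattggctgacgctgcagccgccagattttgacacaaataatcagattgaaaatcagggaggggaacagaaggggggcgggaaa

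The 250 bases before Gata1 held 0 GATA motifs and 2 CACCC motifs. The 196 bases before Klf1 held 1 CACCC motif and 1 GATA motif on the opposite strand, which began 26 bases before the gene's start. The 250 bases before Gfi1b held 1 of each, the GATA motif beginning 120 bases before the start. Of 32851 promoters in the RefSeq table, 26.54% held a GATA motif and 52.01% a CACCC motif within 250 bases, and 20.91% and 44.88% did within 196 bases. A match of letters is a description and not a binding site. A promoter was matched for 6 of the 10 genes.

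The libraries held 12111126 to 14820759 counted reads, so that a floor of 3 counts lay at 0.202 to 0.248 CPM (reads of a gene relative to all counted reads of its library, after TMM scaling). Kit, whose product the sort relied on, was at 911 to 1182 CPM, and Ly6a, which encodes Sca-1, at 40.2 to 82.9 CPM. The genotypes were compared with edgeR's quasi-likelihood test over 13296 tested genes, and p-values were adjusted over all of them. No gene was called in either direction (0% of those tested higher, 0% lower), with 0.824 as the lowest adjusted p. Before adjustment 780 genes, or 5.87%, had a p under 0.05. Leaving out WT replicate 1 or p53R248W/+ replicate 1 gave 414 and 336 such genes, and leaving out WT replicate 2 or p53R248W/+ replicate 2 gave 1083 and 899. DESeq2 called 6 genes and limma-voom 0. The biological coefficient of variation was 46.0%. Libraries of the same genotype differed over 2-fold for 24.8% of tested genes in WT and 23.4% in p53R248W/+. In WT that share was 66.5% among genes under 5 CPM and 2.45% among genes of at least 50 CPM.

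Compared per exon length, as RPKM (reads per kilobase of exon, scaled like CPM), the 10 genes spanned more than 3 orders of magnitude. Car2, a cytosolic carbonic anhydrase, stood far above the others, with a mean RPKM of 402 ± 79.3 (SD, n = 4 libraries). Nfe2 followed at 32.7 ± 8.15 and Tfrc, the transferrin receptor that brings iron into the cell, at 27.9 ± 9.99 RPKM. Gfi1b (17.0 ± 7.91), Zfpm1 (16.6 ± 3.16) and Car1 (12.6 ± 5.35 RPKM) formed a middle group. Blvrb, Gata1, Ank1 and Klf1 were the lowest, with mean RPKM values of 3.25, 1.75, 0.365 and 0.275. Car2 was the only gene whose lowest library lay above the highest library of the next gene in this order. All other neighbours overlapped, as the plot of RPKM by library shows.

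**Figure D1:**
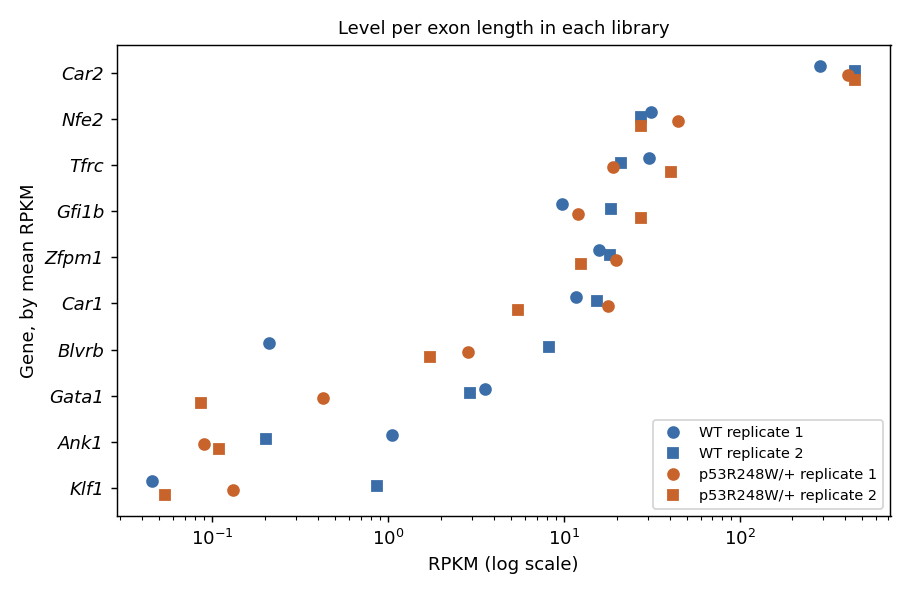
Level per exon length of the 10 erythroid priming genes in each library. The x axis is RPKM on a log scale, genes are ordered by mean RPKM on the y axis, circles and squares are replicates 1 and 2, blue is WT and orange p53R248W/+. Car2 lies at 287 to 456 RPKM, clear of the others, and Gata1 splits by genotype, with WT at 2.91 and 3.56 and p53R248W/+ at 0.0869 and 0.426 RPKM.

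Gata1 had the largest difference between genotypes among the tested erythroid priming genes. It was counted at 97 and 79 reads in the WT libraries, or 6.76 and 5.54 CPM. In the p53R248W/+ libraries it was counted at 12 and 2 reads, or 0.809 and 0.165 CPM, the last below the 3-count floor. Both mutant libraries therefore lay below both WT libraries, and the WT replicates were close to each other. Its row covers mm10 chromosome X from 7959260 to 7967910 on the minus strand, in 6 exon blocks with 1902 exon bases.

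The mean level of Gata1 was 6.15 ± 0.865 CPM (SD, n = 2) with the WT genotype and 0.487 ± 0.456 CPM (SD, n = 2) with the mutant one. The log2 fold change was -3.54 ± 1.21 (SE), an 11.7-fold lower level in the fit, with a 95% interval from -6.07 to -1.01. In the test across the whole table it was not called (adjusted p = 0.824, edgeR quasi-likelihood test). Unadjusted, p was 0.00850, and 101 of the tested genes had a smaller one. Without the WT libraries Gata1 had too few reads to pass the filter on low counts that chose the tested genes. That filter thus favoured a value below 0 for it. Summed over libraries there were 176 reads in WT and 14 in p53R248W/+. That is a ratio of 11.8 with an exact (Clopper-Pearson) 95% counting interval from 6.87 to 22.1, which covers counting error only and not the spread between libraries. Left-out libraries moved the log2 fold change: it ran from -5.14 without p53R248W/+ replicate 1 to -2.91 without p53R248W/+ replicate 2. Its unadjusted p was 0.0518 and 0.0814 in those 2 fits. The bulk libraries cannot tell fewer Gata1-expressing cells from less Gata1 RNA per cell.

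Klf1 was near the floor of detection. It had 1 and 19 reads in WT and 3 and 1 in p53R248W/+, so WT replicate 2 alone lay above the 3-count floor, at 1.33 CPM. The gene (chromosome 8, 84901928 to 84905295, plus strand) did not pass the filter on low counts and has no fold change here.

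Gfi1b, a transcriptional repressor needed for red cell and platelet formation, was at 17.9 and 34.0 CPM in the WT pair and at 21.9 and 49.9 CPM in p53R248W/+. The genotypes overlapped, and in each of them replicate 2 was the higher. Its log2 fold change was 0.43 ± 0.47 (SE), with a 95% interval from -0.56 to 1.42, and it was -0.25 without p53R248W/+ replicate 2.

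Zfpm1, the gene of the GATA1 cofactor FOG1, was at 53.4 and 62.2 CPM in the WT pair and at 67.0 and 42.7 CPM in p53R248W/+. The WT libraries lay between the mutant ones. Between genotypes the log2 fold change was -0.06 ± 0.33 (SE), with a 95% interval from -0.74 to 0.63. Nfe2 was at 87.5 and 76.8 CPM in the WT pair against 125 and 76.8 CPM in p53R248W/+, where replicate 1 stood above the other libraries. Its log2 fold change of 0.31 ± 0.28 (SE; 95% interval -0.28 to 0.90) was -0.10 without that library. The 95% intervals of Gfi1b, Zfpm1 and Nfe2 all included 0.

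**Figure D2:**
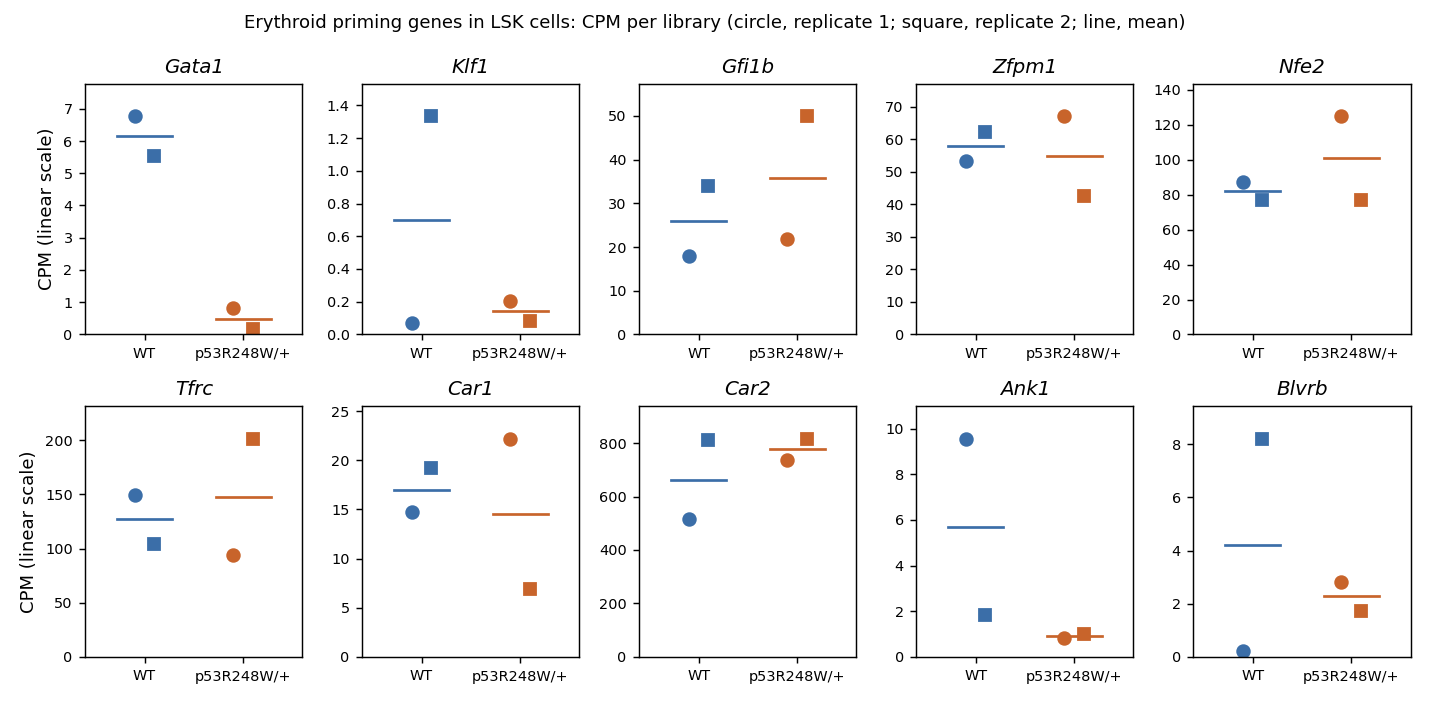
CPM of each erythroid priming gene in each library, on linear axes that start at 0. Circles are replicate 1, squares replicate 2, blue WT, orange p53R248W/+ and lines the group means. Gata1 and Ank1 are the panels in which both mutant libraries lie below both WT libraries, and in Klf1, Ank1 and Blvrb the WT replicates stand far apart.

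Among genes that act downstream in the red cell, Tfrc was at 149 and 104 CPM in the WT pair and at 93.8 and 201 CPM in p53R248W/+. The mutant libraries were the lowest and the highest. For Tfrc the fitted log2 fold change was 0.20 ± 0.30 (SE; 95% interval -0.43 to 0.82), which moved to 0.67 when p53R248W/+ replicate 1 was left out and to -0.44 when replicate 2 was. Dividing cells are known to take up more iron through this receptor. The summed level of 17 proliferation genes was 2144 and 2993 CPM in the WT pair and 1625 and 2929 CPM in p53R248W/+, lowest in the library where Tfrc was lowest. Within WT the order was the opposite, with the lower sum in replicate 1, where Tfrc was higher. Of these genes 2 were positive and 15 negative, with a median log2 fold change of -0.25, and the highest of them were Pcna (-0.33), Top2a (0.01), Mki67 (-0.18) and Ccnb2 (0.28). Its part in the Tfrc values was not tested.

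The carbonic anhydrases, which interconvert carbon dioxide and bicarbonate, lie in the same cluster on chromosome 3. Car1 covers 14766214 to 14808365 on the minus strand and Car2 14886426 to 14900770 on the plus strand. Car2 was at 514 and 813 CPM in the WT pair and at 738 and 816 CPM in p53R248W/+, with WT replicate 1 the lowest. Its log2 fold change of 0.23 ± 0.18 (SE) had the narrowest 95% interval of the set, from -0.14 to 0.60, and was -0.06 without WT replicate 1. Car1, which early erythroid progenitors express, was at 14.7 and 19.2 CPM in the WT pair and at 22.2 and 6.86 CPM in p53R248W/+. The mutant replicates of Car1 lay 3.24-fold apart, on either side of both WT libraries. Its log2 fold change was -0.16 ± 0.57 (SE; 95% interval -1.37 to 1.05), moving to -1.31 when p53R248W/+ replicate 1 was left out and to 0.39 when replicate 2 was.

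Ank1 encodes ankyrin-1, the adaptor that ties the red cell membrane to its spectrin skeleton. It was at 9.55 and 1.82 CPM in the WT pair and at 0.809 and 0.991 CPM in p53R248W/+, from 137, 26, 12 and 12 reads. Both mutant libraries lay below both WT libraries, but most of the WT level came from replicate 1. In the fit the log2 fold change was -2.66 ± 1.17 (SE), or 6.34-fold lower, with a 95% interval from -5.12 to -0.21. It was not called (adjusted p = 0.824, edgeR quasi-likelihood test), and its unadjusted p was 0.0347. Without WT replicate 1 the value was -1.02, with an unadjusted p of 0.464 in the same test. That library also had the highest summed level of 12 neutrophil and monocyte markers, 1705 CPM against 592 to 1025 CPM in the others. Most of that sum was Mpo, at 1273 CPM there and 314 to 628 CPM in the others. Elane, Prtn3 and Ctsg were also highest in that library, whereas S100a8, S100a9, Ngp, Camp and Ltf were lowest in it. The list thus did not move as a whole, and the part of neutrophils and monocytes in the Ank1 value was not tested. Of the 9018 exon bases of Ank1 (chromosome 8, 22974836 to 23150497, plus strand), 364 are shared with the antisense gene Gm15816. Whether reads were counted by strand was not given in the sources used here.

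Blvrb encodes biliverdin reductase B, a flavin reductase abundant in red cells. It was at 0.209 and 8.21 CPM in the WT pair, from 3 and 117 reads, and at 2.83 and 1.73 CPM in p53R248W/+. The WT replicates were 39.2-fold apart and enclosed both mutant libraries. The log2 fold change of -0.84 ± 1.10 (SE; 95% interval -3.15 to 1.47) was -1.81 without WT replicate 1 and 3.43 without WT replicate 2. In limma-voom it was 0.71, so no direction is given for Blvrb.

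Of the 9 tested erythroid priming genes, 0 were called. With an unadjusted p under 0.05 there were 2, Gata1 and Ank1, both lower in p53R248W/+, beside 2.86% of all tested genes in that direction. For Gata1 the filter on low counts favoured that direction. In the other direction there were 0, beside 3.01%. The same 2 genes were those whose genotypes did not overlap, beside 33.6% of all tested genes in either direction. The log2 fold change was negative for 5 genes and positive for 4, with a median of -0.06. Over all tested genes the median was -8.8e-05. The plot of log2 fold changes shows that only the Gata1 and Ank1 intervals lay wholly below 0. In these 2 genes, every fit that left out 1 library also gave a negative value. Because their genotypes did not overlap, that sign was fixed in advance and adds no support.

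**Figure D3:**
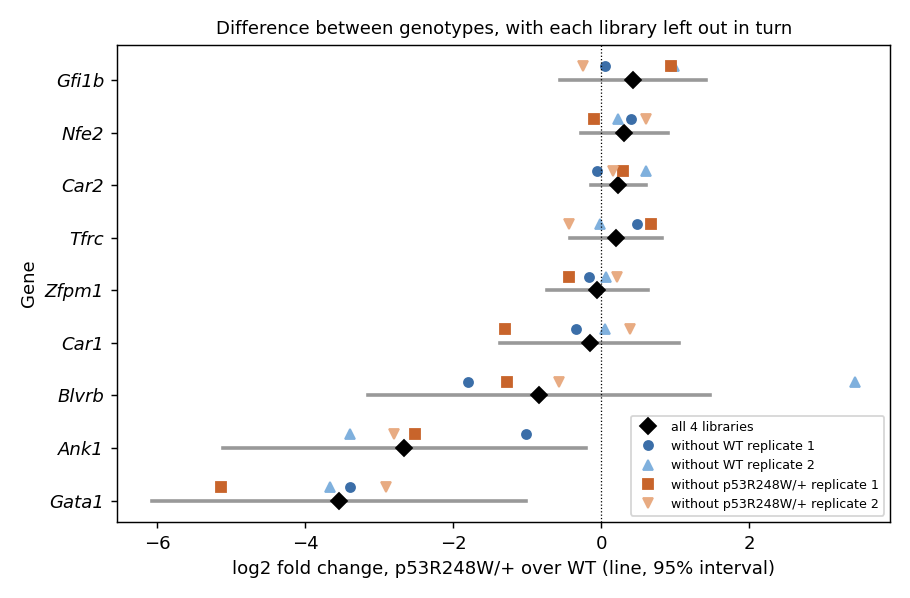
Log2 fold change of the 9 tested genes, p53R248W/+ over WT. Diamonds are the values from all 4 libraries with their 95% interval as a grey line, and the coloured symbols above each line are the values with 1 library left out. Gata1 stays between -5.14 and -2.91, while Blvrb runs from -1.81 to 3.43 and Zfpm1, Car1, Tfrc, Car2, Nfe2 and Gfi1b have values on both sides of 0.

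Of 19 partners of GATA1 and factors that compete with it, 0 were called, with 9 positive and 10 negative log2 fold changes and a median of -0.06. Lmo2, the bridging protein of the GATA and TAL1 complex, was at 822 and 916 CPM in the WT pair and at 1078 and 840 CPM in p53R248W/+. Gata2, the stem cell GATA factor, was at 343 and 381 CPM in the WT pair against 351 and 306 CPM, a log2 fold change of -0.14 ± 0.17 (SE). For Myb, a progenitor factor, the log2 fold change was -0.07, and for Fli1, the megakaryocyte factor that opposes KLF1, it was -0.35. Ikzf1, which encodes the lymphoid factor Ikaros and is named because it was the only gene of the list at an unadjusted p under 0.05, was at 310 and 408 CPM in the WT pair and at 508 and 592 CPM in p53R248W/+. Its log2 fold change was 0.61 ± 0.17 (SE; adjusted p = 0.824, edgeR quasi-likelihood test). The largest negative value of the list was that of Gfi1, the paralog of Gfi1b, at -1.11 ± 0.63 (SE). Gfi1 had 17.6 and 15.2 CPM with WT and 4.79 and 10.9 CPM with the mutant genotype, which did not overlap. It was 1 of 5 genes of the list that lay lower without overlap, beside 16.6% of all tested genes. Another 3 lay higher without overlap, beside 16.9%.

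Of 7 genes of erythropoietin signalling, 0 were called, 2 were positive and 5 negative, with a median of -0.06. The log2 fold changes of the highest genes were -0.16 for Jak2, the kinase bound to the erythropoietin receptor, 0.12 for the transcription factor Stat5a, -0.05 for the kinase Lyn and -0.06 for Tfr2, a second transferrin receptor. The receptor itself, Epor, was at 10.3 and 3.23 CPM in the WT pair and at 1.75 and 8.34 CPM in p53R248W/+. Its libraries overlapped between genotypes.

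Of 22 tested genes of iron uptake and heme synthesis, 0 were called, 9 were positive and 13 negative, with a median of -0.08. The ferritin genes Fth1 and Ftl1, which store iron, had log2 fold changes of -0.13 and -0.32, and Ireb2, which senses iron, one of -0.03. Slc25a37, the mitochondrial iron importer mitoferrin-1, was at 104 and 137 CPM in the WT pair and at 162 and 170 CPM in p53R248W/+, a difference of 0.46 ± 0.22 (SE) in log2 units. Alas2, the red cell enzyme of the first heme step, was at 10.3 and 7.15 CPM in the WT pair and at 13.1 and 12.9 CPM in p53R248W/+. Alas2 thus lay higher in both mutant libraries, with a log2 fold change of 0.58 ± 0.62 (SE). Alad, the enzyme of the next step, lay lower in both, with 12.6 and 14.0 CPM in WT, 6.61 and 7.35 CPM in the mutant and a log2 fold change of -0.94 ± 0.64 (SE). Of the 22 genes, 5 lay higher and 3 lower in both mutant libraries than in both WT libraries, beside 16.9% and 16.6% of all tested genes. At an unadjusted p under 0.05 stood Aco1, the iron regulatory protein IRP1, at 0.98, and Slc11a2, the iron transporter DMT1, at -1.04. That is 1 gene in each direction, beside 3.01% of all tested genes higher and 2.86% lower.

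Red cell membrane genes were split by level. Cd47, Add1, Xk and Gypc were the highest and had log2 fold changes from -0.25 to 0.24. Slc4a1 (band 3, the anion exchanger) was at no more than 0.701 CPM. Of 12 tested membrane genes 0 were called, 6 were positive and 6 negative, with a median of 0.02. Aqp1, the water channel, was at 8.02 and 26.3 CPM in the WT pair and at 4.72 and 5.86 CPM in p53R248W/+. The largest log2 fold changes of the list went both ways, at 2.06 ± 1.07 (SE) for Rhag and -2.03 ± 1.26 (SE) for Sptb. Both genes were at no more than 4.79 CPM. Rhag had too few WT reads, and Sptb too few mutant reads, to pass the filter on low counts without the other genotype. The filter thus favoured the direction seen for each. Of 13 tested genes of later erythroid differentiation 0 were called, 6 were positive and 7 negative, with a median of -0.08. Hemgn, a nuclear protein of blood progenitors, was at 32.8 and 54.1 CPM in the WT pair and at 249 and 36.2 CPM in p53R248W/+, so that 1 mutant library stood apart (log2 fold change 1.76 ± 1.17, SE). Bnip3l, a mediator of mitochondrial clearance in reticulocytes, was at -0.22, Cited2 at -0.18 and Nfe2l1 at 0.19 on the same scale. Trim58, a ubiquitin ligase of late erythroblasts, had readings of 7.53 and 8.84 CPM with WT and of 34.2 and 11.4 CPM with the mutant genotype.

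All 9 globin genes in the table had 0 counts in every library. The adult genes cannot be read from this zero. Hbb-bs and Hbb-b1 share 630 exon bases, as do Hbb-bt and Hbb-b2, and Hba-a1 and Hba-a2 share 1112. How reads on shared bases were assigned was not given in the sources used here.

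**Figure D4:**
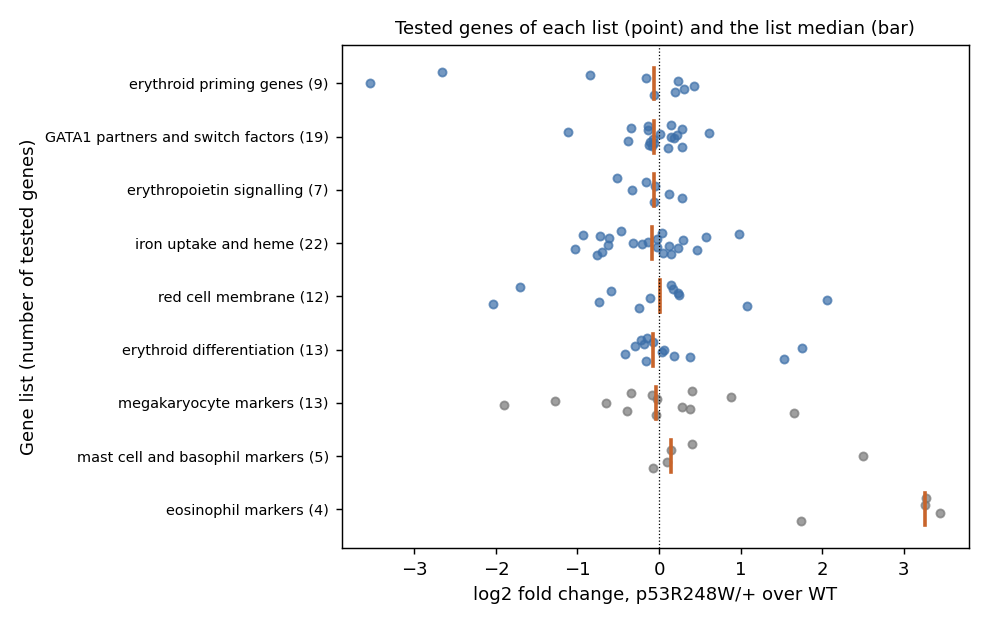
Log2 fold change, p53R248W/+ over WT, of every tested gene (points) in the erythroid lists (blue) and in markers of other Gata1-expressing cells (grey), with the list medians as orange bars and the number of tested genes in parentheses. The medians of the erythroid lists lie between -0.08 and 0.02, while the 4 tested eosinophil markers all lie above 0. Of these markers, Epx, Ear1 and Il5ra had too few WT reads to pass the filter on low counts without the mutant libraries. The filter thus favoured values above 0 for them.

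Other cells that use Gata1 were read from fixed marker lists. The summed level of 14 megakaryocyte genes was 1628 and 1609 CPM in the WT pair and 1520 and 1198 CPM in p53R248W/+. Of its 13 tested genes 0 were called, 5 were positive and 8 negative, with a median of -0.04. The log2 fold changes of the highest genes were -0.39 for Selp, -0.65 for Itgb3, 0.28 for Plek and -0.04 for Vwf. Itgb3, Itga2b and Pf4 were the 3 of 13 tested genes whose mutant libraries both lay below both WT libraries, beside 16.6% of all tested genes. The same 3 had an unadjusted p under 0.05 (edgeR quasi-likelihood test), beside 2.86% of all tested genes in that direction. In the other direction there were 0, beside 3.01%. Itga2b (integrin alpha IIb) was at 84.5 and 65.1 CPM in the WT pair and at 33.7 and 27.8 CPM in p53R248W/+, and Pf4 (platelet factor 4) at 7.46 and 23.6 against 3.37 and 5.12 CPM. Gp6 was at 0 in every library. Treml1, a platelet granule receptor, was the 1 gene that lay above both WT libraries in both mutant libraries, beside 16.9% of all tested genes. Treml1 was at 5.33 and 3.06 CPM in p53R248W/+ against 2.51 and 0.210 CPM in WT. Its WT reads were too few to pass the filter on low counts without the mutant libraries. The filter thus favoured a value above 0 for Treml1. The part of megakaryocyte-primed cells in the Gata1 value was not tested.

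The summed level of 9 mast cell and basophil markers was 34.1 and 26.1 CPM in the WT pair and 30.2 and 58.1 CPM in p53R248W/+, with Mcpt4 and Mcpt1 at 0 throughout. That of 6 eosinophil markers was 1.53 and 7.65 CPM in the WT pair and 29.2 and 22.8 CPM in p53R248W/+. Of the mast cell and basophil sum, Cpa3 alone gave 20.6 and 15.4 CPM in the WT pair and 20.8 and 27.4 CPM in p53R248W/+. Mcpt8 gave 0.837 and 1.82 CPM in the WT pair and 2.83 and 13.2 CPM in p53R248W/+. Of the 5 tested genes of that list 0 were called, 4 were positive and 1 negative, with a median log2 fold change of 0.15. The part of mast cells, basophils and eosinophils in the Gata1 value was not tested.

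The genes whose pattern over the 4 libraries was most like that of Gata1 were Atg101, Zfp493 and Pld6, among 10717 genes with at least 5 CPM. The measure was the Euclidean distance between centred log2(CPM + 1) values, which was 0.0959, 0.657 and 0.690. Atg101, a subunit of the autophagy initiation complex, was at 11.2 and 9.40 CPM in the WT pair and at 2.09 and 0.909 CPM in p53R248W/+. With 4 libraries such closeness is a description only. Of the erythroid priming genes at that level, Car1 was the nearest to Gata1, at rank 1770 and a distance of 2.05, and Gfi1b the farthest, at rank 9880. Klf1, Ank1 and Blvrb had a mean below 5 CPM and were not compared. Gata1 itself also had a mean below 5 CPM over the 4 libraries, and was kept only as the reference.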

How the data were processed

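Bulk mRNA of sorted LSK cells was sequenced in 4 libraries, and the authors deposited raw, unnormalised read counts per gene symbol. STAR 2.7.10a, featureCounts (Subread 2.0.3), FastQC 0.11.5 and edgeR 3.40.2, with build mm10, are named in the submitters' processing notes. The deposited table also gives exon coordinates and lengths. Columns were matched to samples by genotype and number.

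From the counts, filterByExpr (minimum count 10, minimum total 15), TMM scaling and edgeR 4.0.16 (glmQLFit, robust=TRUE, legacy=FALSE) in R 4.3.3 were applied to all genes with genotype as the only term, with Benjamini-Hochberg adjustment and a threshold of 0.05. The fit was tested on simulated data. The 10 genes and the lists were chosen with earlier results of these data known. From each list of red cell or proliferation genes the 4 tested genes with the highest mean RPKM were named; all other genes, those of other cell types included, were chosen after their values were seen. Alternatives were 2 other scalings, DESeq2 1.42.0, limma-voom (limma 3.58.1), the likelihood ratio test, robust=FALSE, 2 other filters, a replicate block and each library left out, and the legacy method was added after the data were seen. Flvcr1, Ahsp, Epb41 and Epb42 were not matched by symbol and were not analysed here.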

Additional observations from a re-analysis of the deposited data

How the results depend on the processing

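With each library left out in turn, the erythroid genes called stayed at 0 and the number called over all genes ran from 0 to 1, the 1 without p53R248W/+ replicate 2. DESeq2 called 6 genes and the likelihood ratio test 4, none of them among the erythroid genes. Gata1 and Ank1 kept a negative log2 fold change under every alternative in which they were tested. Since their genotypes did not overlap, this sign was largely fixed in advance. With all libraries kept, their adjusted p ran from 0.413 (DESeq2) to 0.992 (legacy method) for Gata1. For Ank1 it ran from 0.791 (replicate block) to 0.992 (legacy method). In limma-voom their unadjusted p was 0.0692 and 0.195. Fits with 1 library left out assume that the lone library varies like the other genotype. The stricter filter (a mean of 5 CPM, and 1 CPM or more in 2 libraries) removed Gata1, Ank1 and Blvrb, and the median over the remaining 6 erythroid genes was 0.22. Over the same 9 genes as with all libraries, the median ran from -0.44 without p53R248W/+ replicate 1, and -0.25 without p53R248W/+ replicate 2, to 0.062 without WT replicate 2, and it was 0.096 in limma-voom. The log2 fold change then ran from -1.81 to 3.43 for Blvrb, from -1.31 to 0.39 for Car1, from -0.063 to 0.60 for Car2, from -0.25 to 0.98 for Gfi1b, from -0.10 to 0.60 for Nfe2, from -0.44 to 0.67 for Tfrc and from -0.44 to 0.21 for Zfpm1. Blvrb was at 0.71 in limma-voom, and the cause was not tested. The replicate numbers are shared by both genotypes, but same-numbered libraries did not deviate together (r = -0.0074 across genes, which are not independent replicates). With the replicate block 0 genes were called, Gata1 was at -3.56 and the median of the erythroid genes was -0.08. Klf1 was tested without the filter on low counts (adjusted p = 0.958, edgeR quasi-likelihood test). Depth limits Klf1, Gata1, Ank1 and Blvrb most, each with a library of 12 or fewer reads.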
